A study of Mus musculus with 6 samples.

Results

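The enzymes and transporters described here carry glucose through glycolysis to lactate and through the pentose phosphate pathway. They were 30 mouse genes chosen by name and matched by symbol to a deposited table of 19832 genes, in which 29 of them had a row. Ldhb was not analysed here, and Aldoa had a second row (ENSMUSG00000114515), so that 30 rows were read. The cells were EO771, a mouse mammary tumour line. Cells given recombinant lipocalin-2 (LCN2) protein made up 3 libraries and untreated control cells the other 3. The labels give no dose, exposure time or batch and do not say that replicates came from separate cultures. The p-values therefore measure only how these samples vary, and that spread may be technical.

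Glycolysis splits glucose into pyruvate, with a small gain of ATP, and in many tumour cells most of that pyruvate leaves as lactate even when oxygen is present. The pentose phosphate pathway branches off at glucose-6-phosphate: its oxidative arm makes NADPH and its non-oxidative arm exchanges sugars with glycolysis and supplies ribose for nucleotides. Transcription of glycolytic genes is raised by the hypoxia-inducible factors (HIF) and by MYC, and several genes of the oxidative arm are raised by NRF2.

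Values are FPKM, fragments scaled to transcript length and to library size, a unit inferred from the deposited values; the number of reads behind them is unknown. The epithelial keratins Krt8, Krt18, Krt19 and Krt7 were abundant, although the cadherin gene Cdh1 was near 0. The summed FPKM of 6 epithelial markers was between 1289 and 1303 in LCN2 libraries and between 1332 and 1403 in controls; Krt8 and Krt19 fell by 0.27 and 0.22 on the log2 scale and Krt18 rose by 0.17 (limma). Of 5 tested basal and mesenchymal markers, Vim fell by 0.33, and Krt14 and Zeb2 rose by 0.18 and 0.44; the summed FPKM of all 6 on that list was between 292 and 307 in LCN2 libraries and between 362 and 370.5 in controls. The part of these markers in the results was not tested. The mast cell genes Cpa3, Fcer1a and Mcpt4 were listed at 0 in every library. In bulk RNA such as this, fewer cells of a kind and less RNA per cell cannot be told apart.

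LCN2-treated cells had less message for enzymes at many steps of glycolysis, from hexokinase to lactate dehydrogenase, and for the first enzyme of the pentose phosphate pathway. Of the 30 rows, 27 passed the filter of a mean of at least 1 FPKM, and among these 10 fell and 1 rose at a Benjamini-Hochberg adjusted p under 0.05 in limma, fitted over all 10309 genes tested. Over all genes 9.94% fell and 11.7% rose. The falls were in Hk1, Gpi1, Pfkl, Tpi1, Pgam1, Eno1, Pkm, Ldha, Pdk1 and G6pdx, and the rise was in Rpia. A log2 fold change here is the LCN2 mean less the control mean of log2(FPKM + 1) after scaling between libraries. It was below 0 in 21 of the 27 rows, against 50.4% of all genes tested. After the libraries were scaled to one another, all 3 treated libraries lay below all 3 controls in 14 of the 27 rows and above them in 3, against 21.7% and 22.7% of all genes tested. The median log2 fold change was -0.24 over 16 rows of glycolysis proper, -0.36 over 3 rows of pyruvate and lactate metabolism and -0.05 over 8 rows of the pentose phosphate pathway, and -0.0014 over the whole set tested. None of the 11 calls held in all 6 fits that left out 1 library, as detailed after the results for each step.

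**Figure D1:**
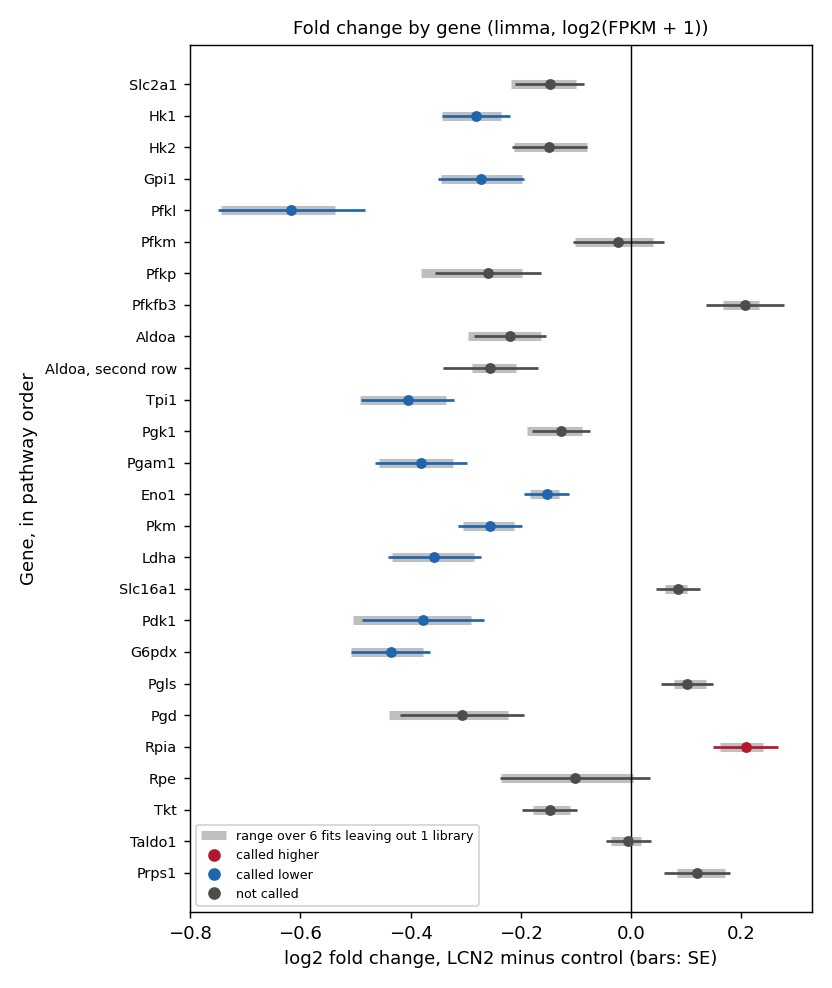
Log2 fold change (LCN2 minus control, horizontal axis) of the 26 tested rows other than Gapdh, in pathway order from top to bottom; points are limma estimates, thin bars their SE (n = 3 and 3), and grey bars the range over 6 fits that each left out 1 library. The called genes keep their side of 0 in all 6 fits, with Pfkl the farthest to the left at -0.62.

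The 4 called genes with the smallest adjusted p were G6pdx (0.011), Tpi1 (0.019), Pfkl (0.021) and Pgam1 (0.022), and all 4 fell. For that rank in adjusted p, the 250 bases before 1 RefSeq transcription start of each gene are shown. By the annotated gene spans, the G6pdx and Pfkl windows lie within the gene and the Tpi1 window partly within it. These 3 windows can therefore hold transcribed sequence. The Pgam1 window ends before the annotated start of its gene. The sequences are from RefSeq (GRCm38.p6), read 5′ to 3′ on the strand of the gene. Capitals mark the core of the hypoxia response element, ACGTG or GCGTG, and the core of the antioxidant response element, TGACNNNGC, each on either strand.
G6pdx (chrX:74428881-74429130, minus strand): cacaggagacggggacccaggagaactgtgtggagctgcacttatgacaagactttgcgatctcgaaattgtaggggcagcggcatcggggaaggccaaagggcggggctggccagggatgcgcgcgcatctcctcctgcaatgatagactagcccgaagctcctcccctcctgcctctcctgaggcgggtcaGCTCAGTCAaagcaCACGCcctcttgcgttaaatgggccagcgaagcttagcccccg
Tpi1 (chr6:124814159-124814408, minus strand): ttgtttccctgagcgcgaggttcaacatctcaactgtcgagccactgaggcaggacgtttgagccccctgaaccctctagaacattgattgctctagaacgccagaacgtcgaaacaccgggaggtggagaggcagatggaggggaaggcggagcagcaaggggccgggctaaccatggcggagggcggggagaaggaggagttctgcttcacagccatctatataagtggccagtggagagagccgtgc
Pfkl (chr10:78009808-78010057, minus strand): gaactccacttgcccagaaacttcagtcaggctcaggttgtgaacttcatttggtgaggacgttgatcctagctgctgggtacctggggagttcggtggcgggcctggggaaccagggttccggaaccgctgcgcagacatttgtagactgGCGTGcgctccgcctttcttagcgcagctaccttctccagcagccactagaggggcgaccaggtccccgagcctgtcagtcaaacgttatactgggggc
Pgam1 (chr19:41911621-41911870, plus strand): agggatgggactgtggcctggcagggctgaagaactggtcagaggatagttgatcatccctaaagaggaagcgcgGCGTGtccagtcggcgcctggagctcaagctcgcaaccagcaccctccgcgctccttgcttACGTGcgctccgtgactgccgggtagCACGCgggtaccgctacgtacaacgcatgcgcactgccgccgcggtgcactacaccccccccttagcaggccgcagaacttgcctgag
The G6pdx window held 1 antioxidant core and 1 GCGTG, the Pfkl window 1 GCGTG, the Pgam1 window 1 ACGTG and 2 GCGTG, and the Tpi1 window none of these letters. One or the other hypoxia core stood in the windows of 6 of the 10 genes that fell and of 23 of the 29 genes matched, against 38.6% of 32851 RefSeq windows of the same length. ACGTG is part of the E-box CACGTG, which 6.02% of all windows and none of the 10 held. The antioxidant core stood in 1 of the 10, against 10.2% of all windows. These matches describe letters and are not binding sites.

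Glucose enters through Slc2a1, the facilitative glucose transporter GLUT1, and is trapped by hexokinase. Slc2a1 had 55.9, 58.5 and 54.2 FPKM in LCN2 libraries and 68.2, 61.5 and 65.6 FPKM in controls. The groups did not overlap as deposited, but did after scaling, and the gene did not pass (log2 fold change -0.15, SE 0.06, adjusted p = 0.13). The hexokinase gene Hk1 (chromosome 10, 62268855 to 62379908, GRCm38) had 54.0, 60.6 and 51.2 FPKM in LCN2 libraries, against 71.8, 71.2 and 67.5 FPKM in controls, and fell by 0.28 on the log2 scale (SE 0.06, adjusted p = 0.022 from limma). All 3 treated libraries lay below all 3 controls. Hk2, the more inducible hexokinase, averaged 21.2 ± 0.657 FPKM in LCN2 libraries and 24.6 ± 1.70 FPKM in controls (SD, n = 3 each) and did not pass (adjusted p = 0.15). Hk1 made up 72.3% ± 1.17 of the FPKM of the hexokinase pair in LCN2 libraries and 74.0% ± 1.14 in controls.

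Gpi1, which turns glucose-6-phosphate into fructose-6-phosphate (chromosome 7, 34201330 to 34230336), had 80.3, 91.2 and 80.7 FPKM in LCN2 libraries and 115, 99.99 and 103 FPKM in controls. It fell by 0.27 (SE 0.08, adjusted p = 0.045 in limma), with no overlap.

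Phosphofructokinase makes the first step committed to glycolysis, and its 3 isozyme genes differed in their values. Pfkl, the liver-type isozyme (chromosome 10, 77986947 to 78010083), had 23.6, 31.0 and 23.0 FPKM in LCN2 libraries, against 45.5, 36.4 and 43.3 FPKM in controls. The groups did not overlap, LCN2 replicate 2 and control replicate 2 being the nearest to each other, and the fall of 0.62 (SE 0.13, adjusted p = 0.021) was the largest of the tested rows in size. Pfkp, the platelet-type isozyme, had 16.2, 16.6 and 15.8 FPKM in LCN2 libraries and 21.9, 17.8 and 21.8 FPKM in controls. It did not pass (log2 fold change -0.26, SE 0.10, adjusted p = 0.088), and control replicate 2 was close to the treated libraries. Pfkm, the muscle-type isozyme, averaged 4.93 ± 0.635 FPKM in LCN2 libraries and 5.23 ± 0.330 FPKM in controls (SD, n = 3 each), with overlapping groups (adjusted p = 0.86). Pfkl accordingly supplied 52.9%, 58.3% and 53.2% of phosphofructokinase FPKM in LCN2 libraries and 62.9%, 60.9% and 61.7% in controls. The share was lower in every treated library than in every control; no test was made of it.

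Pfkfb3 makes fructose-2,6-bisphosphate, an activator of phosphofructokinase. Unlike the enzymes around it, it had higher values with LCN2, at 2.63, 2.83 and 2.71 FPKM in LCN2 libraries and 2.39, 2.24 and 2.34 FPKM in controls. The groups did not overlap, but the gene did not pass (log2 fold change 0.21, SE 0.07, adjusted p = 0.074).

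Aldolase splits the 6-carbon sugar, and Aldoa, its main gene here, had the highest FPKM of the list. It had 787, 845 and 776 FPKM in LCN2 libraries and 1033, 915 and 979 FPKM in controls. The groups did not overlap, yet Aldoa narrowly missed the threshold (log2 fold change -0.22, SE 0.07, adjusted p = 0.051), and passed with median-ratio scaling (adjusted p = 0.049) and 3 other scalings (adjusted p between 0.011 and 0.030). The second Aldoa row lies just upstream and averaged 0.986 ± 0.118 FPKM in LCN2 libraries and 1.42 ± 0.107 FPKM in controls (adjusted p = 0.071). The brain-type gene Aldoc was near 1 FPKM or below in most libraries and was not tested, with 0.407, 0.667 and 0.808 FPKM in LCN2 libraries and 1.65, 0.860 and 1.059 FPKM in controls.

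Tpi1, which interconverts the products of aldolase (chromosome 6, 124810586 to 124814296), had 398, 442 and 375 FPKM in LCN2 libraries, against 602, 517 and 560 FPKM in controls. It fell by 0.41 (SE 0.08, adjusted p = 0.019). The groups were well apart, with the lowest control above the highest treated library.

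Gapdh, the dehydrogenase that follows and a common reference gene in expression assays, did not behave like its neighbours. It had 120, 90.1 and 51.5 FPKM in LCN2 libraries and 300.4, 35.6 and 37.9 FPKM in controls. Control replicate 1 alone was far above all the other libraries, and the other controls were below every treated library. The gene did not pass (adjusted p = 0.87), and its mean was lower in LCN2 libraries (87.2 ± 34.4 FPKM) than in controls (125 ± 152 FPKM) while its log2 fold change was 0.21. With control replicate 1 left out the log2 fold change was 1.22 (adjusted p = 0.063), and with either other control left out it was below 0. Its spread over the controls, an SD of 1.76 on the log2 scale, was greater than that of 99.96% of tested genes. Of the 50-base windows of its longest coding transcript, 82.5% also occur in annotated transcripts of other genes, and 99 genes, most of them processed pseudogenes, hold at least 5% of them. The deposited Gapdh values are therefore uncertain, since reads could be divided among these copies. The part of the copies in the spread of Gapdh over the libraries was not tested. Gm10358, a copy in the table that shares 65.4% of the windows, had 32.9, 32.5 and 32.1 FPKM in LCN2 libraries and 37.4, 30.1 and 36.0 FPKM in controls, close together in all 6.

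**Figure D2:**
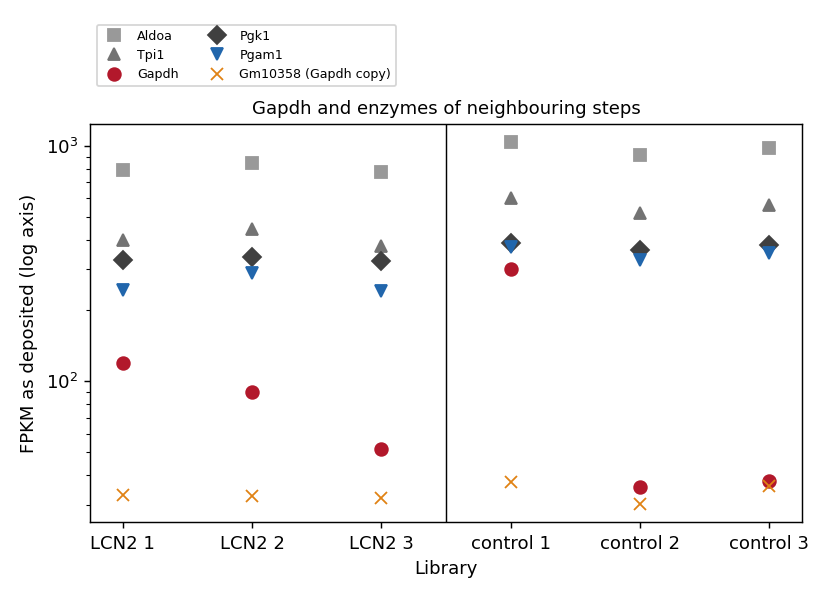
Deposited FPKM (log axis) of Gapdh, of enzymes of neighbouring steps and of Gm10358, a copy of Gapdh, in each library. Gapdh runs from 35.6 FPKM in control replicate 2 to 300.4 FPKM in control replicate 1, while each of the other genes stays within a narrow band.

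The lower part of glycolysis, from phosphoglycerate to pyruvate, gave 3 falls. Pgk1, the first ATP-making step, had 327, 337 and 325 FPKM in LCN2 libraries and 388, 360 and 380 FPKM in controls, and did not pass (log2 fold change -0.13, adjusted p = 0.12). Pgam1, the mutase (chromosome 19, 41911923 to 41918660), had 245, 288 and 241 FPKM in LCN2 libraries, against 371, 328 and 351 FPKM in controls, and fell by 0.38 (SE 0.08, adjusted p = 0.022). Eno1, the main enolase (chromosome 4, 150236721 to 150248879), had 448, 483 and 449 FPKM in LCN2 libraries and 538, 535 and 527 FPKM in controls. The Eno1 fall of 0.15 (SE 0.04, adjusted p = 0.038) was small, but the controls were close together and the groups did not overlap. Pkm, pyruvate kinase (chromosome 9, 59656368 to 59679375), had 466, 522 and 466 FPKM in LCN2 libraries and 627, 589 and 594 FPKM in controls, a fall of 0.26 (SE 0.06, adjusted p = 0.024). The neuronal enolase gene Eno2 was below 1 FPKM in every library and was not tested. Reads of some of these genes could be divided too. Transcripts of other genes hold 72.2% of the 50-base windows of Eno1, 68.0% of Pgk1, 41.5% of Pgam1 and 34.4% of Pkm, and 19.3% of Gpi1, 16.6% of Ldha, 13.5% of Aldoa, 7.65% of G6pdx and 7.51% of Tpi1. Their levels are therefore less certain than those of genes such as Hk1 and Pfkl, at 0% and 0.054%.

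Ldha, the dehydrogenase that makes lactate (chromosome 7, 46841475 to 46855627), had 569, 656 and 553 FPKM in LCN2 libraries, against 855, 741 and 779 FPKM in controls. It fell by 0.36 (SE 0.08, adjusted p = 0.026), with every treated library below every control. Pdk1, the kinase that shuts off pyruvate dehydrogenase (chromosome 2, 71873224 to 71903858), had 9.40, 11.1 and 9.96 FPKM in LCN2 libraries and 15.6, 12.1 and 14.6 FPKM in controls. It fell by 0.38 (SE 0.11, adjusted p = 0.048), and control replicate 2 was again the control nearest to the treated libraries. The lactate transporter Slc16a1 (MCT1) differed little and did not pass, at 51.6, 53.3 and 53.0 FPKM in LCN2 libraries and 51.9, 54.2 and 49.2 FPKM in controls (log2 fold change 0.08, adjusted p = 0.16). Slc16a3 (MCT4), the transporter typical of glycolytic cells, was below 1 FPKM in every library and was not tested.

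In the oxidative arm of the pentose phosphate pathway G6pdx fell, while the lactonase Pgls and the second NADPH-making enzyme Pgd did not pass the test. G6pdx, the rate-limiting dehydrogenase (chromosome X, 74409483 to 74429194), had 33.5, 38.0 and 31.1 FPKM in LCN2 libraries, against 49.9, 48.2 and 47.4 FPKM in controls, and fell by 0.44 (SE 0.07, adjusted p = 0.011). It had the smallest adjusted p of the list. Its exons overlap those of Ikbkg on the other strand, and exons of Hk1, Gpi1, Tpi1, Pkm, Slc2a1, Pfkm, Pfkp, Aldoa, Gapdh, Pgls, Rpe and Tkt also overlap other annotated genes. The table does not say whether strand was used, so such reads cannot be told apart. Pgls, the lactonase, had 45.4, 45.1 and 43.0 FPKM in LCN2 libraries and 40.9, 44.2 and 44.6 FPKM in controls (adjusted p = 0.15). Pgd had 31.2, 43.1 and 33.1 FPKM in LCN2 libraries and 47.7, 43.8 and 46.5 FPKM in controls. LCN2 replicate 2 was at the level of control replicate 2, the groups overlapped after scaling, and Pgd did not pass (log2 fold change -0.31, SE 0.11, adjusted p = 0.088).

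The non-oxidative arm gave the only rise. Rpia, which makes ribose-5-phosphate (chromosome 6, 70765720 to 70792232), had 35.5, 35.1 and 38.6 FPKM in LCN2 libraries, against 32.8, 31.99 and 33.3 FPKM in controls. It rose by 0.21 (SE 0.06, adjusted p = 0.043), but did not pass without scaling (adjusted p = 0.085), with column-sum scaling or after quantile normalization. Transketolase, Tkt, which moves carbon units between sugars, had 105, 114 and 106 FPKM in LCN2 libraries and 121, 138 and 118 FPKM in controls (log2 fold change -0.15, adjusted p = 0.068). Transaldolase, Taldo1, averaged 138 ± 6.68 FPKM in LCN2 libraries and 145 ± 2.85 FPKM in controls (adjusted p = 0.94). Rpe, the epimerase, had 9.59, 11.6 and 13.0 FPKM in LCN2 libraries and 13.7, 10.9 and 13.9 FPKM in controls, so that the groups overlapped widely (adjusted p = 0.61). Prps1, which joins ribose-5-phosphate to nucleotide synthesis, averaged 28.9 ± 1.21 FPKM in LCN2 libraries and 27.7 ± 1.33 FPKM in controls (adjusted p = 0.18).

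**Figure D3:**
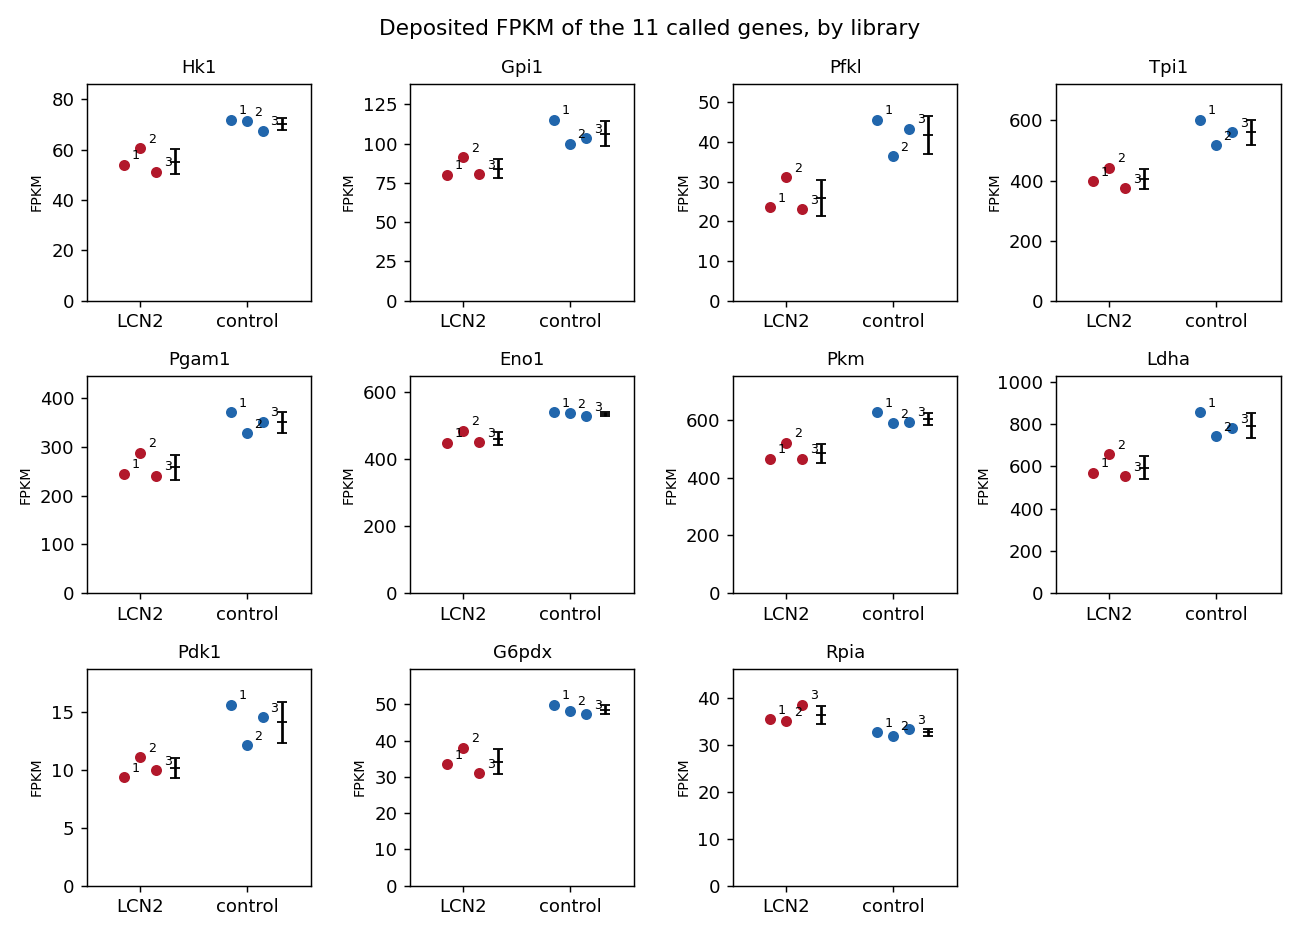
Deposited FPKM of the 11 called genes in each library, with the replicate number beside each point; black marks are the mean ± SD of 3 libraries, and each axis starts at 0. In each panel the groups are apart, and LCN2 replicate 2 is the highest treated library in the 10 genes that fell.

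The libraries of a group were not alike in these genes. After scaling, control replicate 1 was the highest control and control replicate 2 the lowest in all 10 genes that fell, and LCN2 replicate 2 was the highest treated library in all 10. Among the 1025 genes that fell in the whole table, control replicate 1 was the highest control in 60.5%, control replicate 2 the lowest in 56.5%, and LCN2 replicate 2 the highest treated library in 81.2%. The main axis of variation over all genes tested (first principal component) held 60.4% of the variance. On it LCN2 replicates 1 to 3 lay at 15.7, 4.35 and 16.5, and controls at -17.3, -8.08 and -11.1. This order of libraries was thus not particular to the pathway. The SD over the controls had a median of 0.10 on the log2 scale over the 27 rows, against 0.07 over all genes tested. After Gapdh, the widest control spreads were those of Rpe (SD 0.23), Pdk1 (0.22), Pfkl (0.21) and Pfkp (0.21), of which that of Pfkp, the least of the 4, was greater than that of 93.6% of tested genes. The 30 rows without Gapdh summed to 1.02%, 1.11% and 1.00% of all FPKM in LCN2 libraries and to 1.33%, 1.18% and 1.27% in controls.

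**Figure D4:**
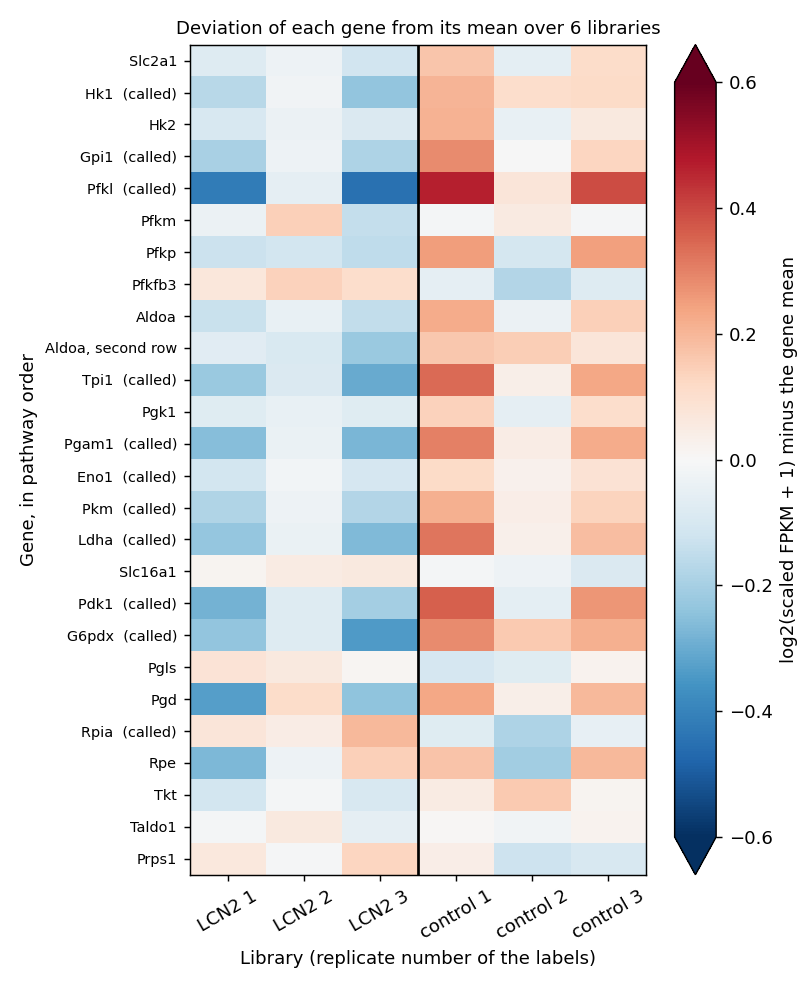
Deviation of log2(scaled FPKM + 1) from the mean of each gene over 6 libraries, for the 26 tested rows other than Gapdh, in pathway order; red is higher and blue lower. Most rows are blue in LCN2 replicates 1 and 3 and red in control replicates 1 and 3, with LCN2 replicate 2 and control replicate 2 pale between them.

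The calls rested on few libraries. Of the 10 falls, 1 was left without control 1, control 3 or LCN2 replicate 3, and 0 without LCN2 replicate 1. The count was 14 on dropping control 2 and 13 on dropping LCN2 replicate 2. Falls over all genes went from 1025 to 217 without control 1 and 162 without control 3. They went to 184 without LCN2 replicate 3 and 90 without LCN2 replicate 1. On dropping control 2 they were 809, and on dropping LCN2 replicate 2 they were 1551. The gene still called in each fit with 1 fall was G6pdx, which missed only on dropping LCN2 replicate 1 (adjusted p = 0.055). The other 9 were called only when control 2 or LCN2 replicate 2 was dropped, and their highest adjusted p ran from 0.075 for Tpi1 to 0.15 for Pdk1. Rpia passed only on dropping LCN2 replicate 2, and its adjusted p otherwise reached 0.14. Each of the 11 called genes kept its direction in all 6 fits. Without scaling between libraries 17 rows fell and 0 rose, where 16.3% of all genes fell and 6.72% rose, and the whole set tested had a median of -0.06.

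The medians of a list of hypoxia genes and of the glycolytic rows were both highest in control replicate 1. Both were lowest in LCN2 replicates 1 and 3. The same held for the NRF2 targets described below, and the pentose phosphate rows were also highest in control replicate 1. A list of 20 symbols of HIF targets outside the pathway had 16 tested genes, of which 7 fell and 2 rose, against 9.94% and 11.7% of all genes tested. The falls included Narf (log2 fold change -0.60, adjusted p = 0.015) and the histone demethylase Kdm3a (-0.55, adjusted p = 0.026), while Ndrg1 rose by 0.84 (adjusted p = 0.0098) and the mTOR inhibitor gene Ddit4 by 0.49 (adjusted p = 0.019). Bnip3, a mitophagy receptor chosen after its values were seen, had 2.83, 8.43 and 2.43 FPKM in LCN2 libraries and 26.5, 8.07 and 21.6 FPKM in controls, so that LCN2 replicate 2 and control replicate 2 were at one level. The median deviation of the 16 hypoxia genes from their mean was -0.21, -0.02 and -0.20 on the log2 scale in LCN2 replicates 1 to 3 and 0.24, -0.13 and 0.17 in control replicates 1 to 3. For the 19 tested glycolysis, pyruvate and lactate rows the same medians were -0.13, -0.04 and -0.17 in LCN2 libraries and 0.21, -0.0006 and 0.11 in controls. For the 11 NRF2 targets they were -0.10, -0.03 and -0.13 in LCN2 libraries and 0.15, 0.13 and 0.06 in controls. For the 8 pentose phosphate rows they were -0.06, 0.02 and -0.02 in LCN2 libraries and 0.04, -0.05 and 0.02 in controls. The part of the hypoxia genes in the lower glycolytic values was not tested. When control 1, control 3, LCN2 replicate 1 or LCN2 replicate 3 was dropped, the 9 called hypoxia genes came down to 2 or fewer.

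**Figure D5:**
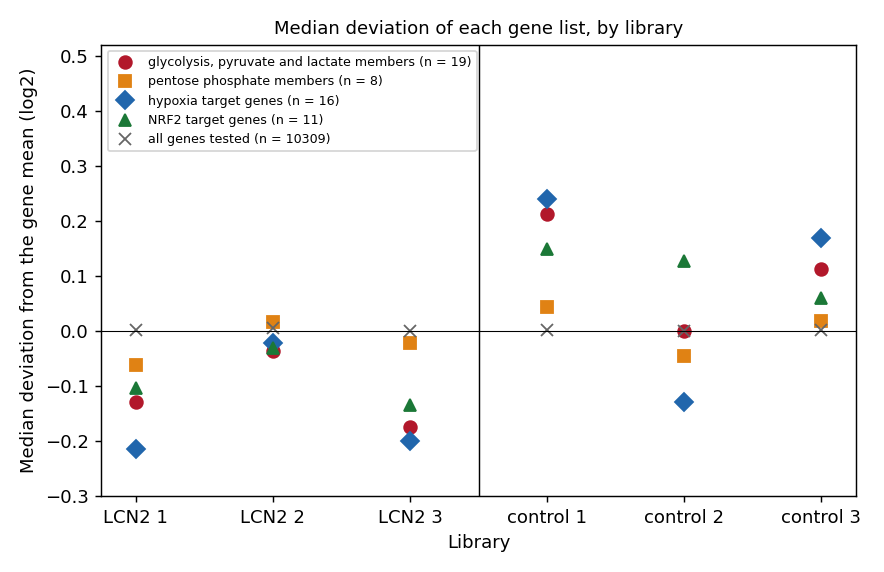
Median deviation (log2 scale) of the tested genes of each list from their mean over 6 libraries, by library. Glycolytic, hypoxia and NRF2 target genes are highest in control replicate 1 (0.21, 0.24 and 0.15) and lowest in LCN2 replicates 1 and 3. All genes tested stay near 0, where scaling and centring place them.

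The messages of the factors that control the pathway did not all move with it. Hif1a, the oxygen-regulated HIF subunit, whose control is mainly at the protein level, had 90.8, 82.4 and 87.5 FPKM in LCN2 libraries and 66.8, 77.3 and 70.0 FPKM in controls. Myc had 200.5, 163 and 199 FPKM in LCN2 libraries and 102, 144 and 126 FPKM in controls. Both were higher in every treated library than in every control, opposite to the glycolytic genes. After scaling, 22.7% of all genes tested had every treated library above every control, and 21.7% had every treated library below. Txnip, which restrains glucose uptake and is induced by glucose through the factors MondoA and MLX, had 342, 244 and 362 FPKM in LCN2 libraries and 61.9, 175 and 136 FPKM in controls. Its relative Arrdc4, induced in the same way, had 11.9, 8.31 and 12.3 FPKM in LCN2 libraries and 2.69, 5.30 and 5.059 FPKM in controls. For both, control replicate 1 was the lowest of the 6 libraries and LCN2 replicate 2 the lowest treated one, the mirror of the order in the glycolytic falls. Mlx itself had 22.7, 27.5 and 23.6 FPKM in LCN2 libraries and 33.2, 32.2 and 29.99 FPKM in controls, below every control in each treated library. The part of these regulators in the lower glycolytic values was not tested. Nfe2l2, which encodes NRF2, had 54.0, 64.1 and 52.2 FPKM in LCN2 libraries and 80.6, 73.0 and 72.7 FPKM in controls, and every treated library was below every control. The same held for Keap1, which encodes the inhibitor of NRF2, with 10.2, 12.8 and 10.4 FPKM in LCN2 libraries and 17.2, 13.9 and 15.3 FPKM in controls. In the 6 limma fits leaving out 1 library, Hif1a passed in 5, Arrdc4 in 4, and Myc and Txnip in 3. Nfe2l2 and Keap1 passed in 2 of these fits and Mlx in 1. Of 11 NRF2 targets, 5 fell and 1 rose, against 9.94% and 11.7% of all genes tested, the falls including ferritin heavy chain Fth1 (-0.26, adjusted p = 0.0055), glutathione reductase Gsr (-0.36, adjusted p = 0.015), Srxn1 (-0.32, adjusted p = 0.016) and Gsta4 (-0.35, adjusted p = 0.018). The median of the 11 was -0.26. The 6 called likewise came down to 2 or fewer on dropping any 1 of these 4 libraries.

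Among 44 tested genes of neighbouring sugar metabolism, 7 fell and 4 rose, against 9.94% and 11.7% of all genes tested, so that the list was near the background of 21.6% called in either direction. Its median log2 fold change was -0.07. Sorbitol dehydrogenase, Sord, fell by 0.43 (adjusted p = 0.0071) and stayed called whichever library was dropped. Ugp2, which makes UDP-glucose, had 136, 157 and 130 FPKM in LCN2 libraries and 184, 187 and 187 FPKM in controls, a fall of 0.34 (adjusted p = 0.015). Pck2, the mitochondrial enzyme that makes phosphoenolpyruvate, rose by 0.50 (adjusted p = 0.021). The 11 called came down to 2 or 3 on dropping control 1, control 3, LCN2 replicate 1 or LCN2 replicate 3.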

How the data were processed

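RNA of 6 EO771 samples was sequenced after an RNeasy extraction and a SMARTer mRNA library kit, per the labels' protocols. The authors deposited 1 table of 19832 genes, named as raw counts. No value above 0 was whole within 1e-9, and the values were treated as FPKM, inferred from the deposited values. Per the submitters' processing notes the build was GRCm38; the sources used here do not name the aligner, quantifier or strand setting.

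Values were scaled by TMM without count weights (trims 0.3 and 0.05), giving factors between 0.973 and 1.06. Genes averaging 1 FPKM or more were fitted with limma 3.58.1 (R 4.3.3) on log2(scaled FPKM + 1), with a variance trend. Calls are two-sided at a Benjamini-Hochberg adjusted p under 0.05 over 10309 genes. The fit was tested on simulated data. Printed FPKM are as deposited.

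The members, lists and tests were chosen with earlier results of these data known. The values of all members, up to 4 called genes of each other list, and the regulators were to be named. One gene that this rule takes is not reported here. Overlapping exons were listed and copies were sought as 50-base windows shared in GENCODE M21 transcripts. Alternatives were other scalings, pseudocount, filters, no trend, array weights, a replicate term and leaving out each library.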

Additional observations from a re-analysis of the deposited data

How the results depend on the processing

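The 10 falls became 17 with values as deposited, 6 with no filter, 16 with array weights and 0 with the replicate block, and ran from 0 to 14 when 1 library was left out. The 1 rise became 0 as deposited, scaled to column sums, after quantile normalization, with no filter or with the replicate block, 2 with array weights, and 0 to 1 with 1 library left out. The 11 calls in other sugar genes became 6 with no filter, 22 with array weights, 1 with the replicate block and 2 to 16 with 1 library left out. The 9 hypoxia genes became 3 with no filter, 1 with the block and 0 to 12 with 1 library left out, and the 6 NRF2 targets 1 with the block and 1 to 8 with 1 library left out. The cause was not tested. Over all genes 2229 of 10309 were called, against 1476 of 14088 with no filter, 4173 with array weights and 237 with the block. Leaving out 1 library gave 264 to 3147. Falls over all genes were 1025, against 1680 as deposited, 602 with no filter, 2058 with array weights and 73 with the block. The labels tie replicates of the groups to each other only by number. Deviations of same-numbered libraries correlated at -0.22, -0.26 and 0.0086 across genes. With so few libraries these values cannot show whether the replicates were paired.

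With 1 library left out, directions turned only in genes that were not called: the log2 fold change ran from -0.35 to 1.22 for Gapdh, from -0.10 to 0.040 for Pfkm, from -0.24 to 0.0037 for Rpe and from -0.036 to 0.019 for Taldo1. Gapdh was below 0 without control replicate 2, control replicate 3 or LCN2 replicate 1. Without the variance trend the 1 rise was Pfkfb3 in place of Rpia. Every tested member kept its direction under the scalings, pseudocount, filters, trend, weights and block. Depth is unknown, so counting error could not be given.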
